A study of Mus musculus with 16 samples.

Results

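The 44 genes described here encode the actin cytoskeleton and the machinery that moves a cell: actins, the Arp2/3 complex, monomer-binding and filament-turnover proteins, cappers, bundlers, non-muscle myosin II, membrane linkers and the proteins that switch actin assembly on. They were chosen by name, with earlier results of these data known, and all 44 are present among the 19195 genes of the table. They were measured by RNA sequencing in 16 libraries of sorted regulatory T cells (Tregs), a CD4+ lineage that depends on Foxp3 and dampens immunity. The cells came from 8-week-old Foxp3-GFP mice, which report Foxp3 expression as green fluorescence, 7 days after myocardial infarction (MI). Every group shares the Foxp3-GFP genotype and the MI, so there was no uninjured group. The groups were CCR8- and CCR8+ Tregs of the injured heart and CCR8- and CCR8+ Tregs of the mediastinal lymph node (MLN), with 4 libraries of about 100 sorted cells each. CCR8 is a chemokine receptor known from Tregs that live in tissues. The sources used here do not say whether the libraries of a group come from separate mice or from pools, so the p-values measure the spread between these libraries, which may be technical.

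Actin cycles between monomers and filaments. Profilin feeds monomers to growing ends, thymosins hold monomers in reserve, cofilin severs old filaments, and the Arp2/3 complex builds new branches on existing filaments when proteins of the Wiskott-Aldrich family call it in. T cells use branched networks to crawl and to form the contact zone with an antigen-presenting cell, and they use myosin II to retract the rear of the cell. Loss of coronin 1A, WASP or DOCK2 causes immune deficiency, with T cells that migrate poorly.

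Expression is given as log2(FPKM + 1), a level per transcript length, with the 4 libraries of a group always in the order of replicates 1 to 4. Where 4 group means are listed without names, the 2 heart groups come before the 2 of the MLN, and CCR8- before CCR8+ within each tissue. Differences are on the log2 scale with their standard error (SE), a fold is the ratio of FPKM + 1, and group values are mean ± SD with n = 4. A gene was called, and is said to have risen or fallen, where the Benjamini-Hochberg adjusted p over all 10369 genes tested was under 0.05 in limma (two-sided). All 44 members were above the minimum level for that test. In a bulk library, fewer cells of a type and less RNA per cell cannot be told apart.

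Within each tissue Ccr8 RNA followed the sort, and the libraries were not free of other cells. Ccr8 had group means of 8.45 ± 0.24, 10.01 ± 0.30, 4.60 ± 0.66 and 7.78 ± 0.40. Across tissues the labels do not order it: every heart CCR8- library (8.20 to 8.73) held more Ccr8 RNA than any MLN CCR8+ library (7.39 to 8.18). Cd3e had group means of 7.79 to 7.91, Foxp3 of 4.90 to 5.58 and Cd4 of 4.84 to 6.09. A list of 12 fibroblast markers had group means of 4.61 ± 0.85, 3.05 ± 1.68, 0.20 ± 0.28 and 0.14 ± 0.16. A list of 11 macrophage markers had 3.16 ± 0.65, 3.07 ± 2.25, 0.47 ± 0.16 and 0.99 ± 0.27. Heart CCR8- replicate 3 stood apart with an endothelial marker mean of 7.08, and heart CCR8+ replicate 2 with a macrophage marker mean of 5.73. In the MLN, the mean of 5 B cell markers was 1.62 ± 1.23 without and 3.54 ± 1.11 with CCR8. For 7 dendritic cell markers it was 1.64 ± 1.38 without and 3.43 ± 0.47 with CCR8.

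Many of these genes rank among the abundant transcripts of the Tregs, but not all. Of the 44 members, 28 had a mean level of 7 or more over the 16 libraries, as had 839 of the 10369 genes tested. A mean of 10 or more was found for 8 members, and 6 were under 5. Tmsb4x held rank 1, 2 or 3 of all genes in every library, and Actb, Tmsb10 and Pfn1 were also within the 74 highest ranks throughout. By the mean over 16 libraries the lowest members were Myh9, the myosin IIA heavy chain, with group means of 3.04 to 3.63, and Cap1, a monomer recycling protein, with group means of 3.06 to 3.88. Within the heart groups Actg2 was lower still, with means of 2.69 and 1.60.

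**Figure D1:**
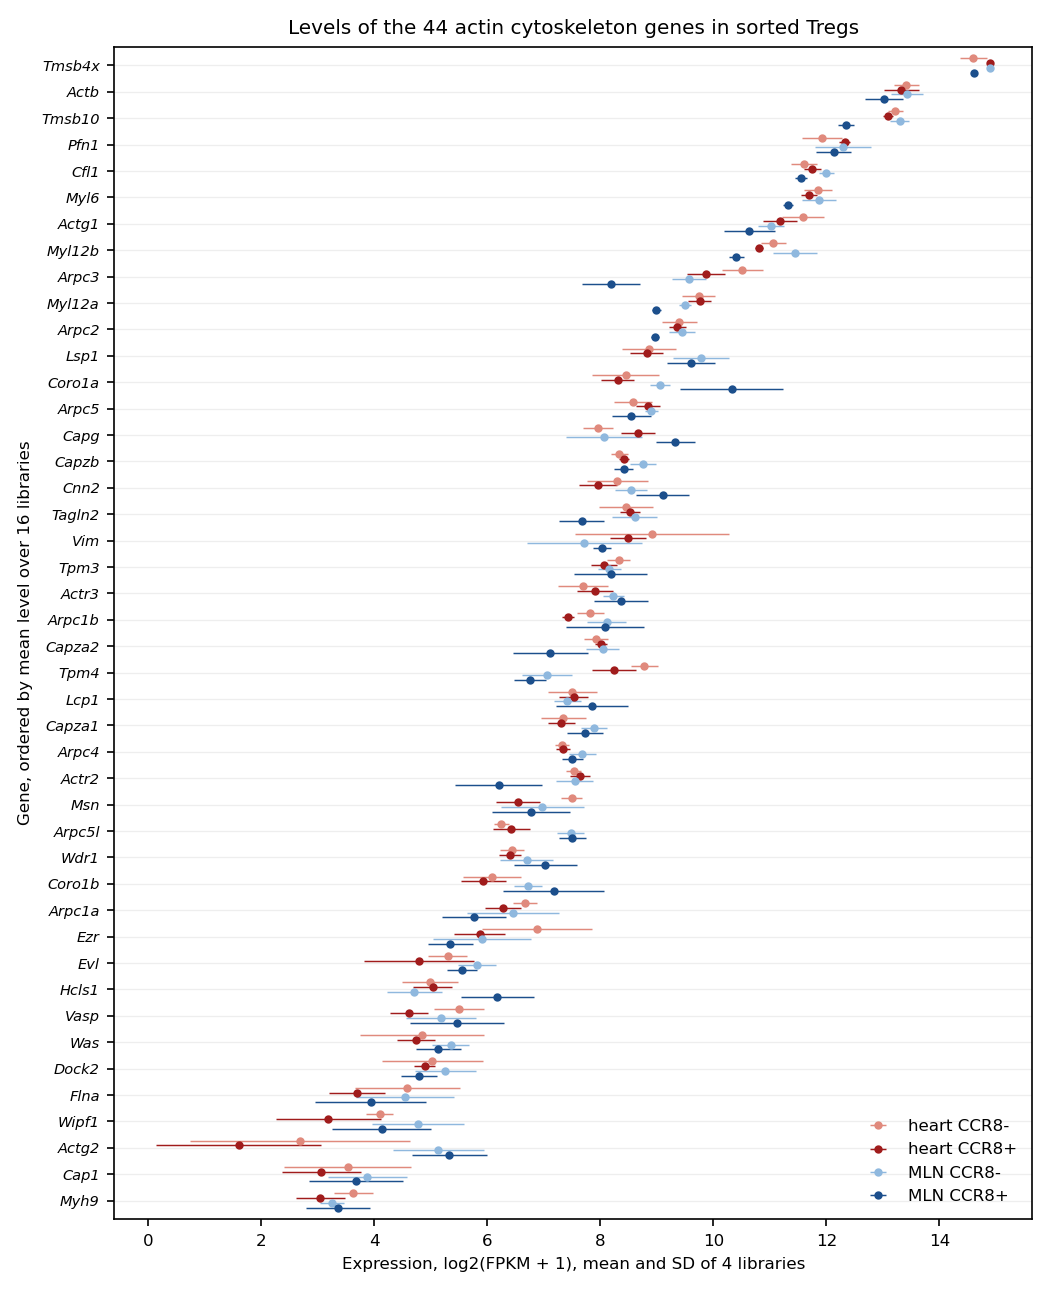
Mean level of each of the 44 genes in each group, as log2(FPKM + 1), with bars of 1 SD over 4 libraries. Genes are ordered by their mean over 16 libraries, from Tmsb4x at the top to Myh9. For most genes no group has a bar apart from all the others. Genes whose MLN CCR8+ bar is set apart include Arpc3, Tmsb10, Actr2, Coro1a, Arpc2, Hcls1, Myl6, Myl12a and Myl12b. For Tpm4 both heart bars lie above both MLN bars, and for Actg2 the bars of heart CCR8- and MLN CCR8- overlap.

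In the MLN, CCR8+ Tregs had lower levels of the thymosin Tmsb10, cofilin, Arp2, ARPC3, transgelin 2 and 2 myosin light chains than CCR8- Tregs. They had higher levels of coronin 1A, Capg and Hcls1. The thymosin Tmsb4x also counts as fallen, by a change of place among the top ranks described below. Of the 44 members, 8 fell (2.09% of all genes tested fell) and 3 rose (2.04% of all genes rose). That makes 25% of the members called against 4.14% of all genes. Highly expressed genes are called more often: among genes with a mean level of 7 or more, 10 of 28 members (35.7%) and 17.9% of all such genes were called. The median difference of the members was -0.25 and of all genes -0.04. In the heart the same comparison called 0 of 44 members in limma, against 0.366% of all genes.

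Between tissues, Tpm4 and Arpc3 were higher and Arpc5l lower in the heart in both CCR8 groups, and further members were called in CCR8+ Tregs. Heart CCR8+ against MLN CCR8+ gave 8 members that were higher and 5 that were lower in the heart, where 5.82% of all genes were higher and 3.97% lower. That is 29.5% of the members against 9.79% of all genes, and 35.7% against 26.1% among genes at a level of 7 or more. Heart CCR8- against MLN CCR8- gave 2 higher and 2 lower members, where 2.95% of all genes were higher and 1.61% lower. That is 9.09% against 4.56%, and 10.7% against 12% at a level of 7 or more. The share at high levels in that last comparison is thus near the background. The MLN CCR8+ libraries enter both the MLN comparison and the CCR8+ tissue comparison, so a low value there appears in both, and the 2 sets of values are given side by side below without being counted as separate evidence. In all, 18 members were called in at least 1 of 5 comparisons and 26 in none. The share of all genes called in at least 1 is not given here, so these counts have no background to be judged by.

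**Figure D2:**
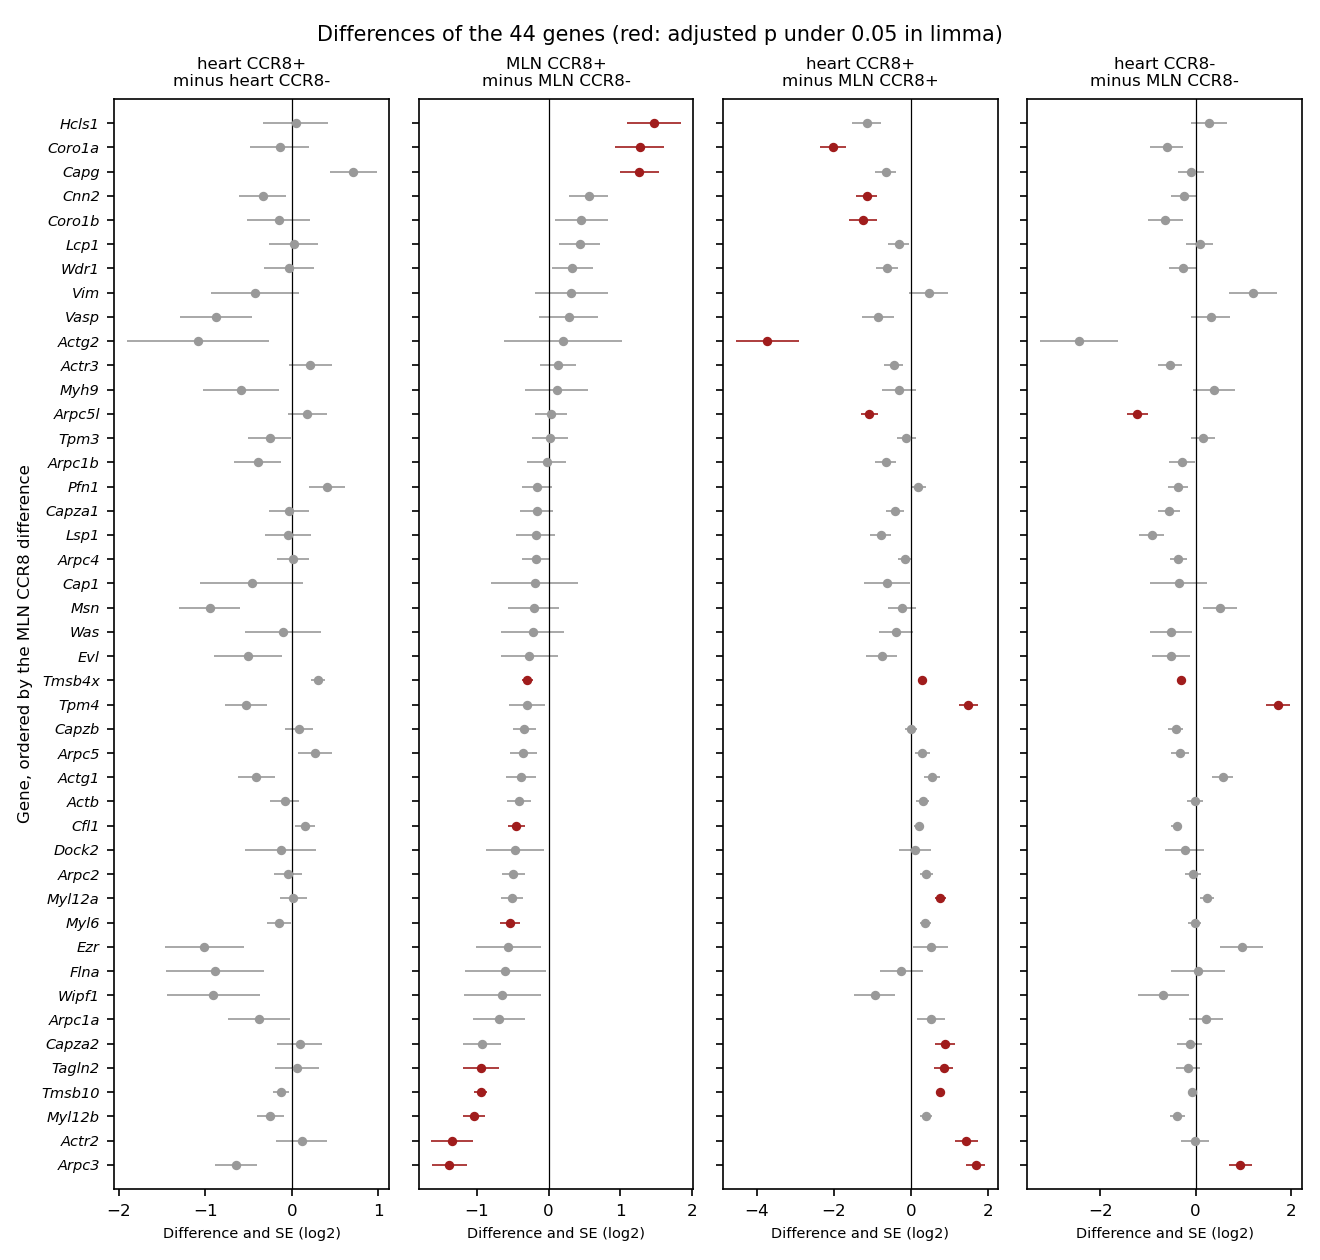
Difference of each member in 4 comparisons on the log2 scale, with bars of 1 SE from limma and called genes in red. Genes are ordered by the MLN difference between CCR8+ and CCR8-, from Hcls1 at 1.47 to Arpc3 at -1.38. The heart panel of CCR8+ against CCR8- has 0 red points, and the MLN panel has 3 to the right and 8 to the left of 0.

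Thymosins are small peptides that bind actin monomers and keep them from polymerising, and Tmsb10 was lower in MLN CCR8+ Tregs than in each other group. Tmsb10 (chr6:72957347-72958748, GRCm38, minus strand) stood at 13.21, 13.27, 13.05 and 13.35 in CCR8- and 13.21, 13.05, 13.01 and 13.09 in CCR8+ libraries of the heart, and at 13.53, 13.21, 13.17 and 13.27 in CCR8- and 12.42, 12.50, 12.21 and 12.26 in CCR8+ libraries of the MLN. Tmsb10 lay at ranks 5 to 39, and the 74 highest ranks carry the same values in every library. Its values are thus set by rank, and its differences, folds and SE depend on those fixed steps. The 4 MLN CCR8+ libraries lay below all 12 others. It fell by 0.95 in MLN CCR8+ against MLN CCR8- (SE 0.09, adjusted p = 7.43e-06), a 1.93-fold lower level, and was 0.74 higher in heart CCR8+ than in MLN CCR8+ (SE 0.09, adjusted p = 3.53e-05). In the heart the CCR8 difference was -0.13, and the difference between the tissues' CCR8 differences was itself called, at 0.82 (SE 0.13, adjusted p = 0.0043). Tmsb10 was lower in MLN CCR8+ under every setting tried, and the interaction kept its call in all but 1 of them, with an adjusted p of 0.054 when no minimum level was set.

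Tmsb4x (chrX:167207093-167209315, minus strand), the more abundant thymosin, stood at 14.60, 14.90, 14.60 and 14.30 in CCR8- and 14.90, 14.90, 14.90 and 14.90 in CCR8+ libraries of the heart, and at 14.90, 14.90, 14.90 and 14.90 in CCR8- and 14.60, 14.60, 14.60 and 14.60 in CCR8+ libraries of the MLN. Only 3 values occur, because the table gives the 3 highest ranks the same values in every library, and the steps between them are 0.296 and 0.301. Tmsb4x was the first-ranked gene in all heart CCR8+ and all MLN CCR8- libraries and the second-ranked in all MLN CCR8+ libraries, where Rps27, a ribosomal protein gene, stood at 14.90. Its differences are therefore exchanges of place among the top transcripts: -0.30 for CCR8+ against CCR8- in the MLN (adjusted p = 0.041), 0.30 for heart against MLN in CCR8+ (adjusted p = 0.022), -0.30 for heart against MLN in CCR8- (adjusted p = 0.039) and 0.59 for the interaction (SE 0.11, adjusted p = 0.019), with an SD of 0 in 3 of 4 groups. In heart CCR8+ against heart CCR8- it was 0.30 higher, with an adjusted p of 0.14 that became 0.0138 without heart CCR8- replicate 2. With 1 library left out, the MLN call held only without heart CCR8- replicate 2, 3 or 4 (adjusted p up to 0.098 without any other). The call between the CCR8+ groups was lost without replicate 2 or 3 of the heart or replicate 1 or 4 of the MLN (up to 0.055). That between the CCR8- groups was lost without heart CCR8- replicate 1, 3 or 4, heart CCR8+ replicate 3, any MLN CCR8- library or MLN CCR8+ replicate 1 or 2 (up to 0.089). Some other settings also lost these 3 calls, with adjusted p up to 0.323, 0.144 and 0.709 in the same order. The interaction held without each library in turn and was lost under 5 of 8 other settings (up to 0.181).

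**Figure D3:**
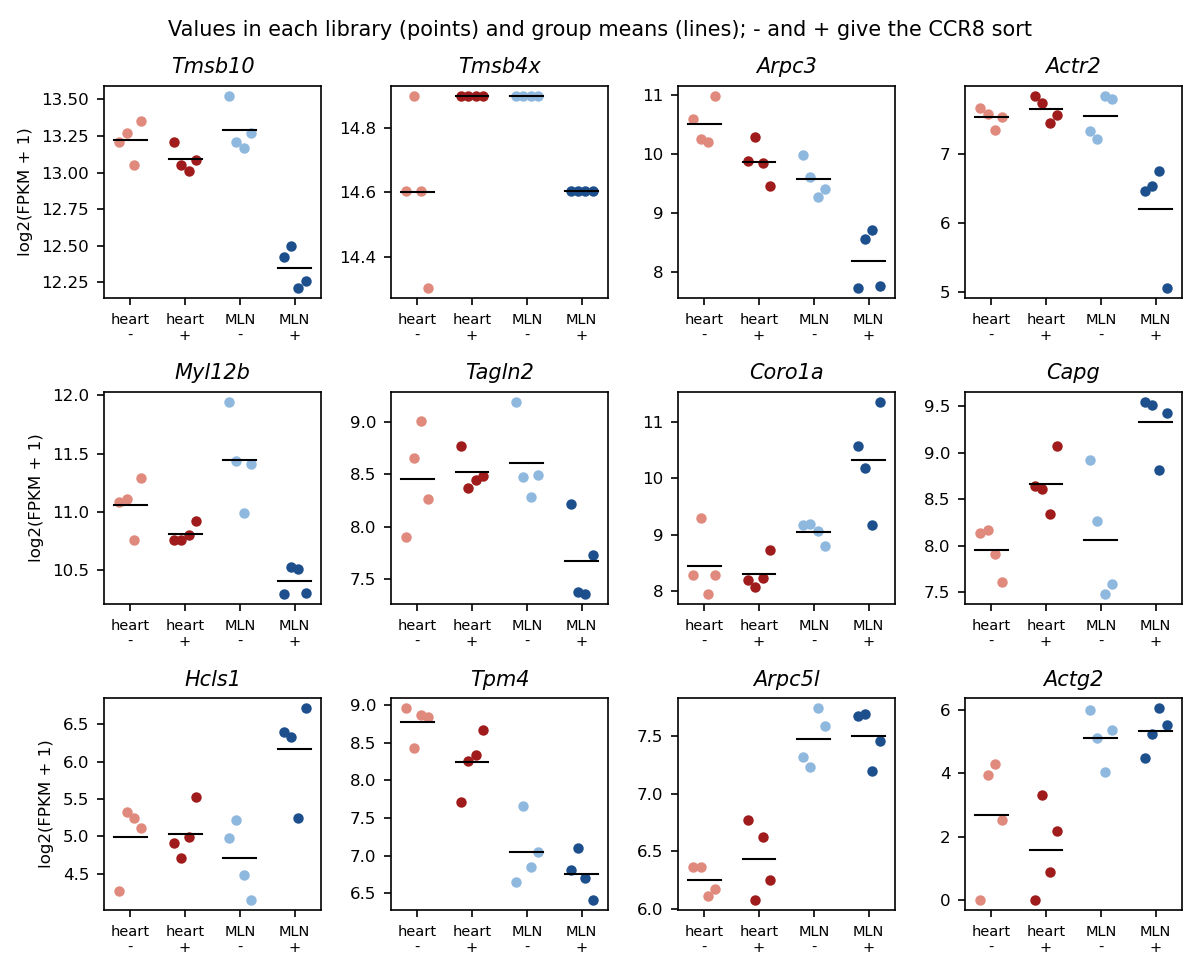
Level of 12 members in each library, as log2(FPKM + 1), with each point a library and each line a group mean; the vertical axes differ between panels and do not start at 0, except for Actg2. The 4 MLN CCR8+ libraries lie below the others for Tmsb10, Arpc3, Actr2 and Myl12b, and the 8 heart libraries lie below the 8 MLN libraries for Arpc5l and above them for Tpm4.

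The Arp2/3 complex, which nucleates branches, did not move as a block. Of its 9 members, 2 fell in MLN CCR8+ against CCR8- and 7 did not pass, where 2.09% of all genes fell and 17.9% of genes at a level of 7 or more were called. Arpc3, a core subunit, (chr5:122391878-122414184, plus strand) was the most variable across groups, at 10.60, 10.25, 10.21 and 10.99 in CCR8- and 9.88, 10.29, 9.84 and 9.46 in CCR8+ libraries of the heart, and at 9.98, 9.61, 9.27 and 9.41 in CCR8- and 7.72, 8.56, 8.70 and 7.76 in CCR8+ libraries of the MLN. No MLN CCR8+ library reached the lowest library of any other group. Arpc3 fell by 1.38 in MLN CCR8+ against CCR8- (SE 0.24, adjusted p = 0.0028), was 1.68 higher in heart CCR8+ than in MLN CCR8+ (SE 0.24, adjusted p = 1.59e-04), and was 0.94 higher in heart CCR8- than in MLN CCR8- (SE 0.24, adjusted p = 0.033). The first and second of these calls held under every setting, while the third was lost without CCR8- replicate 1 or 4 of the heart or CCR8- replicate 2, 3 or 4 of the MLN, with adjusted p up to 0.099. The third was also lost with no minimum level and with the fibroblast, macrophage and endothelial marker levels as a covariate (up to 0.508).

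Actr2 (chr11:20062304-20112913, minus strand) encodes Arp2, which with Arp3 forms the start of each branch. It stood at 7.66, 7.57, 7.34 and 7.54 in CCR8- and 7.83, 7.73, 7.44 and 7.56 in CCR8+ libraries of the heart, and at 7.33, 7.21, 7.84 and 7.80 in CCR8- and 6.46, 6.53, 6.76 and 5.06 in CCR8+ libraries of the MLN. The MLN CCR8+ libraries were below the other 12, with replicate 4 the lowest. Actr2 fell by 1.34 in MLN CCR8+ against CCR8- (SE 0.29, adjusted p = 0.012) and was 1.44 higher in heart CCR8+ than in MLN CCR8+ (SE 0.29, adjusted p = 0.0034). Leaving out 1 library at a time, the MLN difference ran from -1.53 to -0.96 and stayed called. The MLN call was lost with only the groups compared and with B cell and dendritic cell marker levels as a covariate (adjusted p up to 0.117).

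Actr3, its Arp3 partner, had group means of 7.69, 7.91, 8.23 and 8.36 and was called in no comparison. Within a library, Actr2 minus Actr3 was -0.60 to 0.18 without and -0.69 to 0.35 with CCR8 in the heart. In the MLN it was -0.90 to -0.40 without and -3.34 to -0.92 with CCR8. The paired subunits thus lay close in the heart and farthest apart in MLN CCR8+ libraries.

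Arpc5l, the alternative form of the ARPC5 subunit, differed between tissues. Arpc5l (chr2:39005348-39015877, plus strand) stood at 6.36, 6.36, 6.11 and 6.17 in CCR8- and 6.77, 6.07, 6.62 and 6.25 in CCR8+ libraries of the heart, and at 7.32, 7.24, 7.75 and 7.59 in CCR8- and 7.68, 7.69, 7.19 and 7.46 in CCR8+ libraries of the MLN. Each heart library was below each MLN library. It was lower in the heart by a difference of -1.08 in CCR8+ (SE 0.22, adjusted p = 0.0037) and -1.22 in CCR8- Tregs (SE 0.22, adjusted p = 0.0027). Both calls held without any 1 library and were lost with the fibroblast, macrophage and endothelial marker levels as a covariate, with adjusted p of 0.143 and 0.573. The usual form Arpc5 had group means of 8.55 to 8.90 and was called in no comparison, and Arpc5 minus Arpc5l was 1.93 to 2.87 over the 8 heart libraries and 0.90 to 1.71 over the 8 MLN libraries.

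The remaining Arp2/3 subunits Arpc1a, Arpc1b, Arpc2 and Arpc4 were called nowhere. Arpc2 was nearest: its 4 MLN CCR8+ libraries (8.89 to 9.06) lay below the 4 of MLN CCR8- (9.23 to 9.76), with a difference of -0.49 (adjusted p = 0.099).

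**Figure D4:**
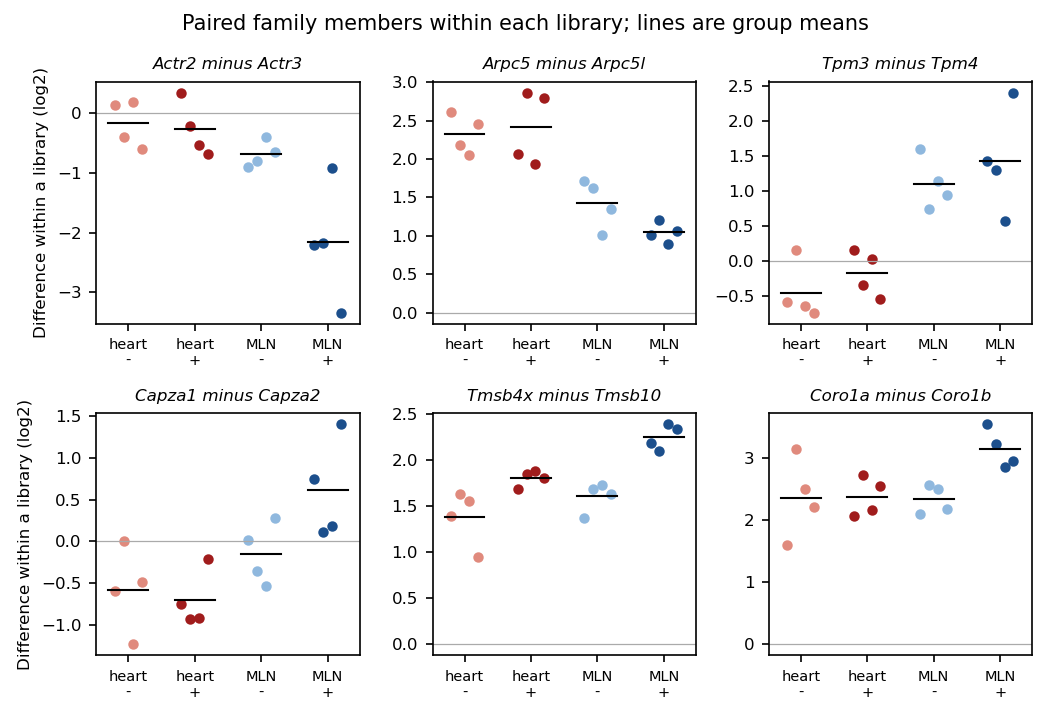
Difference between the 2 members of a family within each library on the log2 scale, with each point a library and each line a group mean. Actr2 minus Actr3 is lowest in MLN CCR8+, Arpc5 minus Arpc5l is higher and Tpm3 minus Tpm4 lower in heart than in MLN libraries, and Capza1 minus Capza2 is above 0 in all 4 MLN CCR8+ libraries. The pairs shown are a part of 11 compared, and no pair passed in exact tests (lowest adjusted p = 0.097).

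The cytoplasmic actins were called in no comparison. Actb, beta-actin, stood at 13.17, 13.71, 13.35 and 13.42 in CCR8- and 13.01, 13.42, 13.17 and 13.71 in CCR8+ libraries of the heart, and at 13.42, 13.05, 13.71 and 13.53 in CCR8- and 13.17, 12.97, 12.58 and 13.35 in CCR8+ libraries of the MLN. The groups overlap, with -0.41 in MLN CCR8+ against CCR8- as its largest difference. Actg1, cytoplasmic gamma-actin, had group means of 11.58, 11.17, 11.02 and 10.64. Its heart means were above those of the MLN by 0.54 in CCR8+ (SE 0.21, adjusted p = 0.116) and 0.57 in CCR8- Tregs (SE 0.21, adjusted p = 0.144), and neither passed. Actb, Actg1, Pfn1, Cfl1, the thymosins and the near-identical light chains Myl12a and Myl12b have close copies in the genome. The sources used here give neither how reads that match several places were counted nor the use of strand, so the split between copies is uncertain.

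Actg2 (chr6:83512905-83536265, minus strand), known as the gamma-actin of smooth muscle, was lower in heart than in MLN Tregs. It stood at 0, 3.94, 4.29 and 2.53 in CCR8- and 0, 3.34, 0.89 and 2.18 in CCR8+ libraries of the heart, and at 5.99, 5.11, 4.06 and 5.38 in CCR8- and 4.48, 5.23, 6.08 and 5.53 in CCR8+ libraries of the MLN. All 8 MLN libraries were at 4.06 or more, and heart CCR8- replicate 1 and heart CCR8+ replicate 1 were listed at 0. Heart CCR8+ against MLN CCR8+ gave -3.73 (SE 0.82, adjusted p = 0.0062), a size that depends in part on the listed 0. With 1 library left out it ran from -4.30 to -3.19, and the call held under every setting. Heart CCR8- against MLN CCR8- gave -2.45 with an adjusted p of 0.0998. Of other smooth muscle genes, Tagln was listed at 0 in all 8 MLN libraries, and Myh11 was at most 0.07 and Des at most 0.34 there. Acta2 averaged 3.46 ± 0.84 in heart CCR8- against 0.81 ± 1.31 in MLN CCR8-. Which cells gave the Actg2 reads, and whether reads of other actins were counted as Actg2, was not tested.

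Among the turnover proteins, coronin 1A rose in MLN CCR8+ Tregs while cofilin fell slightly. Coro1a (chr7:126699773-126707787, minus strand), the coronin of blood cells, stood at 8.27, 9.30, 7.94 and 8.28 in CCR8- and 8.20, 8.06, 8.24 and 8.73 in CCR8+ libraries of the heart, and at 9.18, 9.18, 9.06 and 8.79 in CCR8- and 10.58, 10.18, 9.16 and 11.36 in CCR8+ libraries of the MLN. MLN CCR8+ replicate 3 lay within the range of MLN CCR8- and the other 3 above it. Coro1a rose by 1.27 in MLN CCR8+ against CCR8- (SE 0.34, adjusted p = 0.040) and was lower in heart CCR8+ than in MLN CCR8+, by a difference of -2.02 (SE 0.34, adjusted p = 7.5e-04). The tissue call held under every setting. The MLN call was lost without heart CCR8+ replicate 1 or 3, any MLN CCR8- library or MLN CCR8+ replicate 1, 2 or 4 (adjusted p up to 0.142). No minimum level, only the groups compared and the B cell and dendritic cell covariate each lost the MLN call too (up to 0.160).

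Coro1b (chr19:4148619-4154035, plus strand), the more widely expressed coronin, stood at 6.67, 6.15, 5.44 and 6.07 in CCR8- and 6.13, 5.34, 6.06 and 6.18 in CCR8+ libraries of the heart, and at 7.08, 6.60, 6.56 and 6.62 in CCR8- and 7.02, 6.95, 6.30 and 8.41 in CCR8+ libraries of the MLN. Its heart CCR8+ libraries were below those of MLN CCR8+, with a difference of -1.24 (SE 0.37, adjusted p = 0.037). This call was lost without any heart CCR8+ library or MLN CCR8+ replicate 1, 2 or 4 (adjusted p up to 0.138). Other settings that lost it include no minimum level, only the groups compared and the fibroblast, macrophage and endothelial covariate (up to 0.457). The heart against MLN difference in CCR8- Tregs was -0.63 and did not pass.

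Cofilin, Cfl1 (chr19:5490455-5495201, plus strand), stood at 11.44, 11.81, 11.36 and 11.79 in CCR8- and 11.53, 11.86, 11.74 and 11.86 in CCR8+ libraries of the heart, and at 12.11, 11.95, 11.83 and 12.11 in CCR8- and 11.56, 11.67, 11.41 and 11.53 in CCR8+ libraries of the MLN. All 4 MLN CCR8- libraries lay above those of MLN CCR8+ and of heart CCR8-. Cfl1 fell by 0.45 in MLN CCR8+ against CCR8- (SE 0.12, adjusted p = 0.032), a 1.37-fold lower level. The call was lost without MLN CCR8- replicate 1, 2 or 4 or MLN CCR8+ replicate 1, 3 or 4 (adjusted p up to 0.089). No minimum level, median-of-ratios scaling, only the groups compared and the B cell and dendritic cell covariate each lost it too (up to 0.145). Profilin, Pfn1, had group means of 11.92, 12.32, 12.29 and 12.13, and its heart CCR8+ libraries (12.24 to 12.45) lay above those of heart CCR8- (11.41 to 12.18) without a call (0.41, adjusted p = 0.47). Cap1 and Wdr1, which help cofilin recycle filaments, were called nowhere.

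The promoters of genes that moved in opposite directions in the MLN are shown for Arpc3 and Tmsb10, which fell, and Coro1a and Hcls1, which rose. Each is the RefSeq window (GRCm38.p6) of 250 bases before to 50 after a gene start, printed 5′ to 3′ on the gene's strand, at chr5:122391628-122391927 (plus strand) for Arpc3, chr6:72958699-72958998 (minus strand) for 1 of 3 windows of Tmsb10, chr7:126704767-126705066 (minus strand) for 1 of 2 windows of Coro1a and chr16:36934733-36935032 (plus strand) for Hcls1. Capitals mark matches to the motifs named further below.
Arpc3: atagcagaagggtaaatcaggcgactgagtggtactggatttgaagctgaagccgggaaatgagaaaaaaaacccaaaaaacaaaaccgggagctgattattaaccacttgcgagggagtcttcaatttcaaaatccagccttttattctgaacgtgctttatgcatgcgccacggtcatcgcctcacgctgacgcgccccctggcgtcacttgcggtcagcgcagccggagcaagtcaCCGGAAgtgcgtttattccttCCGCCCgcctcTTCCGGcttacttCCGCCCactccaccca
Tmsb10: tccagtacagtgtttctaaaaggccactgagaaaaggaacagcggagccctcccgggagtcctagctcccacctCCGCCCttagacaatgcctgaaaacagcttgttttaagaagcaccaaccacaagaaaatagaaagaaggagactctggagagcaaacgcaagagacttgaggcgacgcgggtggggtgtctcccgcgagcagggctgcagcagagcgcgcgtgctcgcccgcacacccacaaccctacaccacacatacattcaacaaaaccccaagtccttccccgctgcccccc
Coro1a: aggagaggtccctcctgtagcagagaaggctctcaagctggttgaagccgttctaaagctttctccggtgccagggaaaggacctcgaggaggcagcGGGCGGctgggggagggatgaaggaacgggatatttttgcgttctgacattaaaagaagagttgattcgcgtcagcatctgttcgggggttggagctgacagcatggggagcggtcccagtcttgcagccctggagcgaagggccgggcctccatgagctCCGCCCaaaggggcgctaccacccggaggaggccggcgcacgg
Hcls1: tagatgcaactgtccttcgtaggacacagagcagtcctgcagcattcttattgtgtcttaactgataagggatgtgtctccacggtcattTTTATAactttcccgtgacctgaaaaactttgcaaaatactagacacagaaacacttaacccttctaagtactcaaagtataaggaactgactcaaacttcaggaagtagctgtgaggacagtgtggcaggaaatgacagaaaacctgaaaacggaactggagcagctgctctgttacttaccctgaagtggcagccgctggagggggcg
The Arpc3 window holds the GGGCGG and CCGGAA letters, the printed windows of Tmsb10 and Coro1a only GGGCGG, and that of Hcls1 a TATAAA on the opposite strand. The Coro1a window that is not printed also holds CCGGAA.

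Of the cappers, which close the fast-growing end of a filament, Capg rose in MLN CCR8+ Tregs. Capg (chr6:72544391-72562983, plus strand), a gelsolin relative known from macrophages, stood at 8.14, 8.17, 7.91 and 7.61 in CCR8- and 8.64, 8.61, 8.34 and 9.07 in CCR8+ libraries of the heart, and at 8.92, 8.26, 7.48 and 7.59 in CCR8- and 9.55, 9.51, 8.81 and 9.42 in CCR8+ libraries of the MLN. All but 1 of the MLN CCR8+ libraries lay above every MLN CCR8- library. The rise was 1.26 (SE 0.27, adjusted p = 0.011), a 2.40-fold higher level, and held without any 1 library. Only the groups compared and the B cell and dendritic cell covariate each lost the call (adjusted p up to 0.151). In the heart Capg was 0.71 higher in CCR8+ than in CCR8- with no overlap of the libraries, and did not pass (SE 0.27, adjusted p = 0.32).

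The CapZ subunits did not share this. Capza2 (chr6:17636234-17666972, plus strand) stood at 8.03, 7.61, 7.98 and 8.06 in CCR8- and 8.00, 8.12, 8.05 and 7.87 in CCR8+ libraries of the heart, and at 8.20, 8.13, 8.23 and 7.60 in CCR8- and 6.95, 8.00, 7.13 and 6.39 in CCR8+ libraries of the MLN. Its heart CCR8+ level was 0.89 higher than in MLN CCR8+ (SE 0.26, adjusted p = 0.034), although MLN CCR8+ replicate 2 at 8.00 lay within the heart range. That call was lost without any heart CCR8+ library or MLN CCR8+ replicate 1, 3 or 4 (adjusted p up to 0.128). Other settings that lost it include no minimum level, only the groups compared and the fibroblast, macrophage and endothelial covariate (up to 0.245). Capza1 and Capzb were called nowhere, and Capza1 minus Capza2 within a library was -0.93 to -0.21 in heart CCR8+ and 0.11 to 1.41 in MLN CCR8+.

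Of the 7 filament-binding proteins, 3 were called between the tissues for CCR8+ Tregs, 1 between the tissues for CCR8- Tregs and 1 within the MLN. In the same order, 9.79, 4.56 and 4.14% of all genes were called, and 26.1, 12 and 17.9% of genes at a level of 7 or more. Tpm4 (chr8:72134975-72153142, plus strand), a tropomyosin that lies along actin filaments, stood at 8.97, 8.42, 8.87 and 8.85 in CCR8- and 7.72, 8.26, 8.33 and 8.67 in CCR8+ libraries of the heart, and at 6.64, 7.66, 6.85 and 7.05 in CCR8- and 6.81, 7.10, 6.70 and 6.40 in CCR8+ libraries of the MLN. Each heart library exceeded each MLN library. Tpm4 was higher in the heart by 1.49 in CCR8+ (SE 0.25, adjusted p = 6.03e-04) and by 1.72 in CCR8- Tregs (SE 0.25, adjusted p = 4.19e-04), folds of 2.81 and 3.30. With the fibroblast, macrophage and endothelial marker levels as a covariate the CCR8+ difference stayed called (adjusted p = 0.047) and the CCR8- difference did not (adjusted p = 0.36). Tpm3, the other tropomyosin here, had group means of 8.06 to 8.32 and was called nowhere, and Tpm3 minus Tpm4 was -0.74 to 0.16 over heart libraries and 0.57 to 2.41 over MLN libraries.

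Tagln2 (chr1:172500047-172507380, plus strand), transgelin 2, which steadies actin at the T cell contact zone, stood at 7.90, 8.66, 9.00 and 8.27 in CCR8- and 8.77, 8.37, 8.45 and 8.48 in CCR8+ libraries of the heart, and at 9.19, 8.48, 8.28 and 8.49 in CCR8- and 8.21, 7.38, 7.36 and 7.73 in CCR8+ libraries of the MLN. All MLN CCR8+ libraries lay below all MLN CCR8- and all heart CCR8+ libraries. It fell by 0.94 in MLN CCR8+ against CCR8- (SE 0.25, adjusted p = 0.040) and was 0.85 higher in heart CCR8+ than in MLN CCR8+ (SE 0.25, adjusted p = 0.038). The MLN call was lost without replicate 3 or 4 of heart CCR8+, replicate 1, 2 or 4 of MLN CCR8- or replicate 2, 3 or 4 of MLN CCR8+ (adjusted p up to 0.126). The tissue call was lost without any heart CCR8+ library or MLN CCR8+ replicate 2, 3 or 4 (up to 0.103). Both calls were also lost with no minimum level, the replicate number as a block or the B cell and dendritic cell covariate. Median-of-ratios scaling and only the groups compared lost the MLN call too. The fibroblast, macrophage and endothelial covariate lost the tissue call too. Over these settings adjusted p was up to 0.276 in the MLN and 0.262 between tissues.

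Cnn2 (chr10:79988584-79996062, plus strand), calponin 2, stood at 8.18, 8.90, 7.62 and 8.49 in CCR8- and 7.82, 7.93, 7.66 and 8.44 in CCR8+ libraries of the heart, and at 8.84, 8.17, 8.50 and 8.68 in CCR8- and 9.35, 9.03, 8.48 and 9.56 in CCR8+ libraries of the MLN. It was lower in heart CCR8+ than in MLN CCR8+, by a difference of -1.14 (SE 0.27, adjusted p = 0.0097), a call that held without any 1 library and was lost with the fibroblast, macrophage and endothelial covariate (adjusted p = 0.20). Lsp1, a leukocyte filament-binding protein, stood at 9.09, 9.25, 8.16 and 8.94 in CCR8- and 8.66, 8.59, 8.76 and 9.25 in CCR8+ libraries of the heart, and at 10.29, 10.11, 9.26 and 9.48 in CCR8- and 9.85, 9.63, 8.99 and 9.94 in CCR8+ libraries of the MLN. Its heart CCR8- libraries were below those of MLN CCR8-, with a difference of -0.92 just short of the threshold (adjusted p = 0.054). The bundler Lcp1 and the cross-linker Flna were called in no comparison.

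Of the 3 myosin II light chains, Myl12b and Myl6 fell in MLN CCR8+ Tregs, while Myl12a and the heavy chain did not pass. Myl12b, a regulatory light chain, stood at 11.09, 11.11, 10.76 and 11.29 in CCR8- and 10.76, 10.76, 10.80 and 10.92 in CCR8+ libraries of the heart, and at 11.95, 11.44, 10.99 and 11.41 in CCR8- and 10.29, 10.52, 10.51 and 10.31 in CCR8+ libraries of the MLN. MLN CCR8+ was the lowest group, with no overlap with any other. The fall against MLN CCR8- was 1.04 (SE 0.16, adjusted p = 9.33e-04), a 2.06-fold lower level, and was called under every setting. The level in heart CCR8+ was 0.40 higher than in MLN CCR8+ and did not pass (adjusted p = 0.11).

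Myl12a (chr17:70993656-71002878, minus strand), the sister regulatory chain, stood at 9.42, 9.57, 10.08 and 9.88 in CCR8- and 9.70, 10.05, 9.55 and 9.73 in CCR8+ libraries of the heart, and at 9.45, 9.39, 9.63 and 9.53 in CCR8- and 8.87, 9.03, 9.01 and 9.04 in CCR8+ libraries of the MLN. It was 0.77 higher in heart CCR8+ than in MLN CCR8+ (SE 0.15, adjusted p = 0.0029). That call was lost with the fibroblast, macrophage and endothelial covariate (adjusted p = 0.154). The Myl12a difference of -0.51 in MLN CCR8+ against CCR8-, with no overlap of the libraries, did not pass (adjusted p = 0.066). Myl6 (chr10:128490860-128494145, minus strand), the essential light chain, stood at 11.53, 11.84, 12.13 and 11.89 in CCR8- and 11.56, 11.64, 11.89 and 11.69 in CCR8+ libraries of the heart, and at 12.03, 11.51, 11.73 and 12.18 in CCR8- and 11.24, 11.44, 11.31 and 11.29 in CCR8+ libraries of the MLN. All MLN CCR8+ libraries were below all MLN CCR8- libraries. Myl6 fell by 0.54 in MLN CCR8+ against CCR8- (SE 0.14, adjusted p = 0.029). This call was lost without MLN CCR8- replicate 1 or 4 or MLN CCR8+ replicate 1, 3 or 4 (adjusted p up to 0.089). No minimum level, median-of-ratios scaling, only the groups compared and the B cell and dendritic cell covariate each lost it too (up to 0.424).

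Membrane linkers and vimentin were called in no comparison. Vim, the intermediate filament of mesenchymal and blood cells, stood at 7.73, 9.16, 10.75 and 8.03 in CCR8- and 8.52, 8.76, 8.66 and 8.03 in CCR8+ libraries of the heart, and at 8.72, 8.42, 7.08 and 6.63 in CCR8- and 8.04, 7.89, 7.93 and 8.25 in CCR8+ libraries of the MLN. Heart CCR8- replicate 3, the library with the highest endothelial and fibroblast marker means, was the highest at 10.75; the part of those cells in it was not tested. The linkers of membrane and actin had lower means in heart CCR8+ than in heart CCR8- without a call. Msn differed by -0.95 with no overlap of the libraries (SE 0.35, adjusted p = 0.30), and Ezr by -1.01 (SE 0.45, adjusted p = 0.41).

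Of the proteins that switch on branching, Hcls1 rose in MLN CCR8+ Tregs. Hcls1 (chr16:36934983-36963212, plus strand) encodes HS1, the blood cell relative of cortactin, which stabilises branches. It stood at 4.26, 5.33, 5.24 and 5.11 in CCR8- and 4.91, 4.71, 4.99 and 5.52 in CCR8+ libraries of the heart, and at 4.98, 5.22, 4.49 and 4.15 in CCR8- and 6.39, 6.34, 5.25 and 6.72 in CCR8+ libraries of the MLN. The lowest MLN CCR8+ library, replicate 3 at 5.25, was just above the highest MLN CCR8- library at 5.22. The rise was 1.47 (SE 0.38, adjusted p = 0.031), a 2.77-fold higher level. The call was lost without MLN CCR8- replicate 3 or 4 or MLN CCR8+ replicate 1, 2 or 4 (adjusted p up to 0.113). Only the groups compared and the B cell and dendritic cell covariate each lost it too (up to 0.262). Was, its stabiliser Wipf1 and the Rac activator Dock2, needed for lymphocyte migration, were called nowhere.

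The Ena/VASP proteins, which lengthen filaments, did not pass in any comparison. Evl stood at 5.31, 5.74, 5.26 and 4.89 in CCR8- and 3.38, 5.61, 5.21 and 4.97 in CCR8+ libraries of the heart, and at 5.40, 5.93, 6.20 and 5.75 in CCR8- and 5.24, 5.55, 5.90 and 5.51 in CCR8+ libraries of the MLN. Vasp had its heart CCR8+ libraries (4.15 to 4.86) below those of heart CCR8- (5.04 to 5.96), with a difference of -0.88 (SE 0.42, adjusted p = 0.44).

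Within the heart, CCR8 was thus not accompanied by a called member. At an unadjusted p under 0.05 there were 7 of 44 members and 1156 of 10369 genes. The members whose libraries did not overlap were Pfn1 and Capg, higher in CCR8+, and Msn and Vasp, lower, where 6.98% of all genes did not overlap. With each of the 16 libraries left out in turn, a member was called only without heart CCR8- replicate 2, and that was Tmsb4x (difference 0.40, adjusted p = 0.0138).

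The members called in the MLN come from several roles. Those that fell are the thymosins (Tmsb4x only by a change of place among the top ranks), cofilin, 2 Arp2/3 subunits, transgelin 2 and 2 myosin light chains. Those that rose are coronin 1A, the capper Capg and HS1. Among the 8 proteins of filament turnover, 1 rose (Coro1a) and 3 fell (Tmsb10, Cfl1 and Tmsb4x). Over all genes 2.04% rose and 2.09% fell, and 17.9% of genes at a level of 7 or more were called. Only Tmsb10 of these 4 stayed called whichever library was removed. The upward direction rests on Coro1a alone, whose call depended on single libraries, so a split in direction is not firmly shown. Of the members, 10 lay wholly below and 1 wholly above MLN CCR8- in MLN CCR8+, where 10.2% of all genes did not overlap. The split was 3 higher and 4 lower with median-of-ratios scaling in place of the deposited scale, which lost the calls of Cfl1, Tmsb4x, Tagln2 and Myl6. The number called was 6 on leaving out replicate 1 or 4 of the CCR8- group or replicate 1 of the CCR8+ group. It was 7 on leaving out CCR8- replicate 2 or CCR8+ replicate 3, and 5 on leaving out CCR8+ replicate 4. Actr2, Arpc3, Tmsb10, Capg and Myl12b stayed called without each of the 16 libraries in turn.

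The B cell and dendritic cell lists had higher mean levels in MLN CCR8+ than in MLN CCR8- libraries. Of the markers tested, 0 of 3 B cell and 1 of 4 dendritic cell markers were called higher. The summed level of 5 B cell markers was 3.28 to 137 FPKM over the CCR8- and 60.6 to 385 over the CCR8+ libraries of the MLN, with 1 to 3 and 0 to 2 markers at 0. The summed level of 7 dendritic cell markers was 10.3 to 860 and 341 to 1072 FPKM, with 3 to 5 and 1 to 3 markers at 0, and Flt3 was at 0 in all 4 MLN CCR8- and 2 MLN CCR8+ libraries. With both lists' mean level as a covariate, 3 members were called (Arpc3, Tmsb10 and Myl12b, all lower) and 0 of those that rose. Over all genes this covariate lowered the share called from 4.14% to 1.66%. Capg, Coro1a and Hcls1 are expressed by B cells, dendritic cells or macrophages as well as T cells. The part of such cells in the MLN result was not tested.

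The fibroblast, macrophage and endothelial lists had higher group means in the heart than in the MLN. Of 11 fibroblast markers tested, 9 were higher in heart CCR8+ than in MLN CCR8+ and 10 in heart CCR8- than in MLN CCR8-. In the same order, 2 and 5 of 7 macrophage markers and 1 and 1 of 3 endothelial markers were called higher. Over the 8 MLN libraries the summed level of the fibroblast list was at most 6.87 FPKM, with 2 to 11 of 12 markers at 0, against 15.4 to 6435 over the 8 heart libraries. With these lists as a covariate, 6 members were called in CCR8+ Tregs (13 without it) and 0 in CCR8- Tregs (4 without it). The share of all genes called fell as well, from 9.79% to 3.8% in CCR8+ and from 4.56% to 0.145% in CCR8- Tregs. These marker levels differ with tissue, so the covariate and the tissue cannot be fully told apart. Among members, 10 lay wholly above and 5 wholly below MLN CCR8+ in heart CCR8+ (17.8% of all genes did not overlap), and 2 above and 5 below for CCR8- (9.93%). Of the 4 members called in CCR8- Tregs, 2 were left on removing heart replicate 1, or MLN replicate 2 or 4.

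The tissue dependence of the CCR8 difference was called for Tmsb4x and Tmsb10, 4.55% of the members against 0.405% of all genes. Among genes at a level of 7 or more it was 7.14% against 2.62%. The median over members was 0.10 and over all genes 0.04. For Arpc3 and Actr2 the difference between tissues was not called, so a fall confined to the MLN is not shown for them.

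The members that fell in MLN CCR8+ Tregs have short coding sequences. Their coding length was 150 to 1182 bases with a median of 525, and that of the 3 that rose was 1047 to 1458 with a median of 1383. Of 13 members in the shortest length class (111 to 807 bases, of 4 classes with nearly equal numbers of genes), 7 fell and 0 rose, where 4% of the 2526 genes of that class fell and 2.65% rose. In the longest class 0.716% of genes fell. Short members with no call in the MLN include Pfn1, Arpc5, Arpc4 and Arpc5l. The part of length in the result was not tested.

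**Figure D5:**
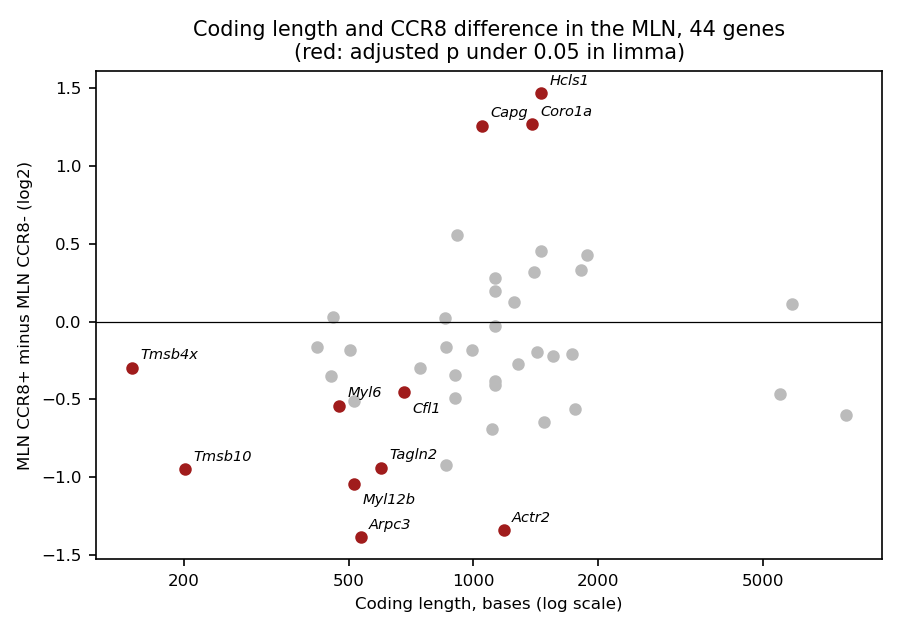
Difference of each member between MLN CCR8+ and MLN CCR8- on the log2 scale against its coding length in bases on a log axis, with called genes in red. Of the members that fell, 7 have a coding length of 807 bases or less and Actr2 has 1182, and the 3 that rose have between 1047 and 1458 bases.

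Some promoters of this gene set carry the CArG box, the site of serum response factor, whose coactivators are released when actin monomers are used up. Of 39 members with a RefSeq window, 4 held a match on either strand (Actg1, Arpc4, Cnn2 and Myl6), 10.3%, against 1.81% of 27025 genes. Actg1 (chr11:120348446-120348745, minus strand) and Cnn2 (chr10:79988350-79988649, plus strand) are printed to show it, in capitals with the other motifs.
Actg1: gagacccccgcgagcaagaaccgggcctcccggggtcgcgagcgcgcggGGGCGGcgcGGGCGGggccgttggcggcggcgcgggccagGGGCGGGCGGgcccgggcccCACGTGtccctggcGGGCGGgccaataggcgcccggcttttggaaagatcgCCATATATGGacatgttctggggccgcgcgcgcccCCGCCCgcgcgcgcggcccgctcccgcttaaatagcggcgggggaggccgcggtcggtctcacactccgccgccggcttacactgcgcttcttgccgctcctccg
Cnn2: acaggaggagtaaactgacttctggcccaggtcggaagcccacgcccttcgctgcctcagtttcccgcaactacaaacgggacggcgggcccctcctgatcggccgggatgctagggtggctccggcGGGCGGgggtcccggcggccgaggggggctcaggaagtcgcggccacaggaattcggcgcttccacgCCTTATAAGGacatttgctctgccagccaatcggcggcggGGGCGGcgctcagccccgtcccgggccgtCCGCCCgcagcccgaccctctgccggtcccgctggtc
Of the other motifs, GGGCGG (the GC box, which can overlap itself) was found for 76.9% of members and 38.2% of genes, CCGGAA (an ETS core) for 43.6% and 16.7%, CACGTG (an E box) for 10.3% and 8.09%, and TATAAA for 7.69% and 15.7%, each on both strands. Neither Actg1 nor Arpc4 was called in any comparison, Cnn2 was called between tissues in CCR8+ Tregs and Myl6 in the MLN. The shares of genes are over all genes with a window, expressed in these libraries or not, while all members passed the minimum level. The part of expression in these contrasts was not tested. A match is a description of the letters and not of binding.

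Of 78 further genes of the pathway, 73 passed the minimum level. In heart CCR8+ against CCR8- 0 were called. In MLN CCR8+ against CCR8- 2 rose and 6 fell (11% called, against 4.14% of all genes), with a median of -0.07 against -0.04 over all genes. Marcksl1, a membrane-actin cross-linker, rose by 2.89 (adjusted p = 0.0083), with MLN libraries at 0.38 to 2.20 without and 3.40 to 4.65 with CCR8, and Swap70, which links Rac to actin, rose by 1.85 (adjusted p = 0.028). The class I myosin Myo1f fell by 3.21 (adjusted p = 0.0087), Gmfg, which removes Arp2/3 branches, fell by 1.57 (adjusted p = 1.24e-04), the monomer-binding Twf1 fell by 1.22 (adjusted p = 0.0498), and Ppp1cb, a catalytic subunit of myosin phosphatase, fell by 1.19 (adjusted p = 0.034). For each of these the 4 libraries of the 2 groups did not overlap. Gmfg was also the gene of this list with a called interaction, 1.63 (SE 0.28, adjusted p = 0.0075), with group means of 8.73 ± 0.22, 8.79 ± 0.25, 9.30 ± 0.28 and 7.73 ± 0.31.

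Heart CCR8+ against MLN CCR8+ called 5 of these genes higher and 5 lower (13.7%, against 9.79% of all genes). Higher were Rhoc by 4.01 (adjusted p = 0.012, listed at 0 in 1 MLN CCR8+ library), Twf1 by 1.63 (adjusted p = 0.0042), Ppp1cb by 1.42 (adjusted p = 0.0056) and Rock1, a kinase that activates myosin II, by 1.36 (adjusted p = 0.017). Lower were Arhgef1 with a difference of -2.23 (adjusted p = 0.0089), Arhgap9 with -1.48 (adjusted p = 0.0038), Arhgap45 with -1.45 (adjusted p = 0.027) and Rhoh, a GTPase of blood cells, with -1.03 (adjusted p = 0.031). Heart CCR8- against MLN CCR8- called 5 higher and 3 lower (11%, against 4.56% of all genes). Higher were Pfn2 by 2.71 (adjusted p = 0.029), Marcksl1 by 2.71 (adjusted p = 0.011), Pak1 by 2.70 (adjusted p = 0.024) and Swap70 by 1.83 (adjusted p = 0.031). Pfn2 was listed at 0 in 2 and Pak1 in 3 of the MLN CCR8- libraries. Lower were Myo1f with -2.61 (adjusted p = 0.030), Arhgdib with -0.89 (adjusted p = 7.23e-04) and Rac2, the Rac of blood cells, with -0.67 (adjusted p = 0.034).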

How the data were processed

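Each library was made from about 100 sorted Tregs with the NEBNext Ultra RNA kit, per the labels' protocols. Alignment was to mm10 (GRCm38) with HISAT2 2.0.5 and counting with featureCounts 1.5.0-p3, per the submitters' processing notes. The deposited values were taken to be log2(FPKM + 1) that the authors had brought to a common distribution (quantile normalization). This reading rests on the 74 highest ranks, which carry identical values in all libraries, and on sums of 1007908 to 1007934 without the log. No source used here names those steps, and the unit could also be TPM. With a common distribution, top-ranked genes can move only in fixed steps. Read depth is unknown, and 10691 to 12704 genes were above 0 per library.

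Dropping 24 rows with a date in place of a gene name left 19195 genes. The test covered the 10369 genes that reached an FPKM of 1 in 4 or more libraries. In limma 3.58.1 (R 4.3.3), group means of all 16 libraries were modelled together, with 12 residual and 7.01 prior degrees of freedom and a trended variance. There were 5 contrasts, each with Benjamini-Hochberg adjustment over the genes tested. The procedure was tested on simulated data. GENCODE vM21 supplied positions and coding lengths, with 1 entry each for 43 of 44 members, and RefSeq (GRCm38.p6) supplied promoters.

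The planned unit was FPKM without a log, but limma was the planned tool for both. Members, further pathway genes, marker lists, tests and settings were chosen with earlier results of these data known. Values per library are given for members called in at least 1 comparison and the member with the highest mean of each of 9 role groups. Of the further pathway genes, up to 4 per comparison and direction with the largest difference are named. The alternatives tried were a constant of 0.1, no minimum level, an FPKM of 5 or more, median-of-ratios factors, only the groups compared, a replicate block, leaving out each library, and marker levels of other cells as a covariate.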

Additional observations from a re-analysis of the deposited data

Results flagged for a closer look

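Of 176 groups of 4 libraries looked at (44 genes in 4 groups), 7 held a library far from the other 3, where chance flags about 1 in 20. Pfn1 in MLN CCR8+ replicate 3 stood at 11.67, with the nearest library at 12.24. Coro1b stood at 5.34 in heart CCR8+ replicate 2 (nearest 6.06) and at 7.08 in MLN CCR8- replicate 1 (nearest 6.62). Capzb stood at 8.66 in MLN CCR8+ replicate 2 (nearest 8.35), and Capza2 at 7.60 in MLN CCR8- replicate 4 (nearest 8.13). Capg stood at 8.81 in MLN CCR8+ replicate 3 (nearest 9.42), and Myl12a at 8.87 in MLN CCR8+ replicate 1 (nearest 9.01). Heart CCR8+ replicate 2 is the library with the highest macrophage marker mean.

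The CCR8 difference of 2 genes differed between tissues in the test of that difference in limma. For Tmsb4x the heart difference exceeded the MLN difference by 0.59, with 0.30 in the heart and -0.30 in the MLN. For Tmsb10 it was 0.82, with -0.13 in the heart and -0.95 in the MLN, where all 4 CCR8+ libraries were lower than all 4 CCR8- libraries.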

How the results depend on the processing

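Over 30 gene and comparison pairs, 601 of 748 values kept the call, 147 lost it and 0 reversed. For a comparison of 2 groups, many settings leave the difference itself unchanged and could not reverse it. These are a library left out of another group, another minimum level, only the groups compared and the replicate block. The 0 reversed is thus in large part fixed in advance. Of the 30, 18 kept the call without each library in turn, and 9 under every setting. In MLN CCR8+ against CCR8- (11 members) the count was 6 with no minimum level, 7 with median-of-ratios factors (3 higher, 4 lower), 4 with only the groups compared (all lower), 3 with the B cell and dendritic cell covariate, added after seeing the data, and 5 to 12 with 1 library left out. In heart CCR8+ against MLN CCR8+ (13) it was 6 with the fibroblast, macrophage and endothelial covariate and 9 to 14 with 1 library left out. In heart CCR8- against MLN CCR8- (4) it was 2 with no minimum level, 0 with that covariate and 2 to 5 with 1 library left out. For the interaction (2) it was 0 with no minimum level, and 1 each with median-of-ratios factors, either covariate, and both heart CCR8- replicate 3 and heart CCR8+ replicate 2 left out, also added after seeing the data; 1 library left out gave 2 to 3. In heart CCR8+ against CCR8- it was 0 to 1 with 1 library left out. No minimum level raises the genes tested to 17229; the cause of the other changes was not tested. Read depth is unknown, so low members such as Myh9 and Cap1 cannot be given a limit of detection.

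With the replicate number as a block the counts were 0, 10, 14, 6 and 2 in that order of the heart, MLN, CCR8+ tissue, CCR8- tissue and interaction comparisons. The labels do not say that equal numbers pair libraries. Deviations from the group means correlated by -0.0933 to 0.0589 between libraries of equal number (24 pairs) and by -0.0961 to 0.117 between others, so the numbers were not taken as pairs.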
